A study of Rattus norvegicus with 4 samples.

Results

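The genes described here, apart from the pseudogene Mrps11-ps1, encode proteins of the mitochondrial ribosome. They were taken as every probe set whose only platform gene symbol begins with Mrpl or Mrps and a digit, with the brightest probe set standing for a gene. This gave 63 genes of the 14557 with 1 symbol on the array, 40 named for the large subunit (Mrpl) and 23 named for the small subunit (Mrps), the pseudogene included. RefSeq lists 78 protein-coding rat genes with such symbols, and 62 of them are among the 63. They were measured in INS-1 cells, a rat insulinoma line that secretes insulin and stands in for the pancreatic beta cell. For 7 days the cultures had 22.4 mM glucose (2 arrays) or 11.2 mM glucose (2 arrays), and total RNA was hybridized to Affymetrix arrays. Both groups are the same cell line, which as a tumour line differs from islet tissue, and no other agent is named in the labels. The labels number the arrays of each group 1 and 2 and do not say whether they came from separate cultures, so a p-value here reflects array-to-array spread alone, and that spread may be technical.

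The mitochondrial ribosome translates the few messenger RNAs made from mitochondrial DNA, all of which encode core proteins of the respiratory chain and ATP synthase. Its ribosomal RNAs come from mitochondrial DNA, while all of its proteins are encoded in the nucleus, made in the cytosol and imported. Part of these proteins belong to the families found in bacterial ribosomes, and the rest have no bacterial counterpart. In beta cells, ATP made by mitochondria closes potassium channels and so links glucose to insulin release.

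Values are log2 signals as deposited, and every difference is 22.4 mM minus 11.2 mM on that scale. The 36685 probe sets ranged from 2.23 to 13.2, with array medians between 4.73 and 4.80. Signals of different probe sets do not rank transcripts by amount, and in a bulk RNA sample fewer cells of a type and less RNA per cell cannot be told apart. Of 13 beta cell markers 9 were named on the array, and 8 of these had a mean signal above 7.27, the upper quartile of all probe sets. The beta cell markers had a median difference of -0.19. All 3 acinar and all 3 immune markers measured lay below the median of 4.76, and so did 2 of 3 stromal and endothelial markers, with a highest signal of 5.32. Of 3 markers of other islet cells 2 lay below it, while the glucagon gene Gcg stood at 11.1. Of the 63 genes, 51 had a mean signal above the upper quartile and 1, Mrpl42, lay below the median. Replicate 1 of 11.2 mM stood apart from the other arrays: it held the highest or lowest value in 47 of the 63 genes (74.6%), against 62.3% of all genes with 1 symbol.

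RefSeq promoter windows of assembly GRCr8, each holding 250 bases before and 50 bases after a gene's start, were found for 50 of the 63 genes. Stretches before the start are shown for 5 genes whose differences lay on both sides of 0. The first is the stretch between the start sites of Mrps11 and Mrpl46, which point away from each other. It is shown because the lowest difference of all members, that of Mrps11, lay next to a difference near 0. The next pair, Mrps18b and Mrpl32, both hold the full palindrome bound by nuclear respiratory factor 1 (NRF1), and had differences of opposite sign. The last pair, Mrpl48 and Mrpl23, hold CCGGAAG or its reverse complement, the core of sites bound by ETS factors such as GABPA, and both had values below those at 11.2 mM. Capitals mark the NRF1 palindrome, the ETS core and, in the first, the letters TATAAA; each is written 5′ to 3′ on the strand of the gene named.
Mrps11, chr1:142117031-142117263, plus strand: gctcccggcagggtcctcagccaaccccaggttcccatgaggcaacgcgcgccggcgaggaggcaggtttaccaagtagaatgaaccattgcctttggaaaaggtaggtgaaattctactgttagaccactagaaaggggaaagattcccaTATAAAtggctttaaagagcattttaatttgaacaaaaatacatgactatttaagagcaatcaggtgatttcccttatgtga
Mrps18b, chr20:2842886-2843005, plus strand: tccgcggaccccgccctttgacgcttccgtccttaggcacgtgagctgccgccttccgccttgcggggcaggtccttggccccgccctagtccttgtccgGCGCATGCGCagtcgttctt
Mrpl32, chr17:55260531-55260650, plus strand: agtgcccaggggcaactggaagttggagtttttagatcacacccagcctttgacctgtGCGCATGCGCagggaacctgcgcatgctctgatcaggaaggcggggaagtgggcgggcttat
Mrpl48, chr1:164351377-164351496, minus strand: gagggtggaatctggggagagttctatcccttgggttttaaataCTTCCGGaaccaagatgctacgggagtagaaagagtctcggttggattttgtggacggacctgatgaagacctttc
Mrpl23, chr1:207116810-207116929, plus strand: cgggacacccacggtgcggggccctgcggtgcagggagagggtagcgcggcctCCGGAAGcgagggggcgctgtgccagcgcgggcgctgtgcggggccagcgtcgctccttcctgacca

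Signals of the mitochondrial ribosomal protein genes differed little between the glucose levels, though not less than those of other genes. Their median absolute difference was 0.12, against 0.11 over all genes with 1 symbol. None of the 63 passed the test: limma with Benjamini-Hochberg adjustment over all 36685 probe sets called 0 members and 0 probe sets (0.0%), and the lowest adjusted p of a member was 0.300. Differences ran from -0.57 for Mrps11 to 0.36 for Mrpl18, with a median of 0.034 over the 63 genes, against -0.0038 over all genes with 1 symbol. The 95% interval of the difference lay within a change of 2-fold either way in all 63, and in 13939 of 14557 genes with 1 symbol. It lay within 0.5 either way on the log2 scale in 46 of 63 (73.0%), against 66.1% of all genes with 1 symbol. At an unadjusted p under 0.05 there were 4 members (6.35%), Mrps34 higher and Mrps11, Mrpl2 and Mrps18b lower, against 9.12% of all probe sets and 9.58% of all genes with 1 symbol. The groups did not overlap in 32 of the 63 (50.8%), against 40.6% of all probe sets and 44.6% of all genes with 1 symbol.

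Medians of the 2 subunits lay on opposite sides of 0 by small amounts. Of the 40 large subunit genes 27 had positive differences (67.5%), against 49.2% of all probe sets and 48.9% of all genes with 1 symbol, and their median difference was 0.13. Of the 23 small subunit genes 9 had positive differences (39.1%), and their median was -0.026. Both arrays of 22.4 mM lay above both of 11.2 mM in 17 large subunit genes (42.5%) and 4 small subunit genes (17.4%), against 19.6% of all probe sets and 21.5% of all genes with 1 symbol. The reverse held in 4 large subunit genes (10%) and 7 small subunit genes (30.4%), against 21.0% of all probe sets and 23.1% of all genes with 1 symbol. Leaving out replicate 2 of 22.4 mM gave a large subunit median of 0.067, and leaving out replicate 1 of 11.2 mM gave 0.087. The small subunit median was 0.0014 when replicate 2 of 11.2 mM was left out. No test was made of the 2 lists against each other, since the genes of a list are not replicates of a glucose level.

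**Figure D1:**
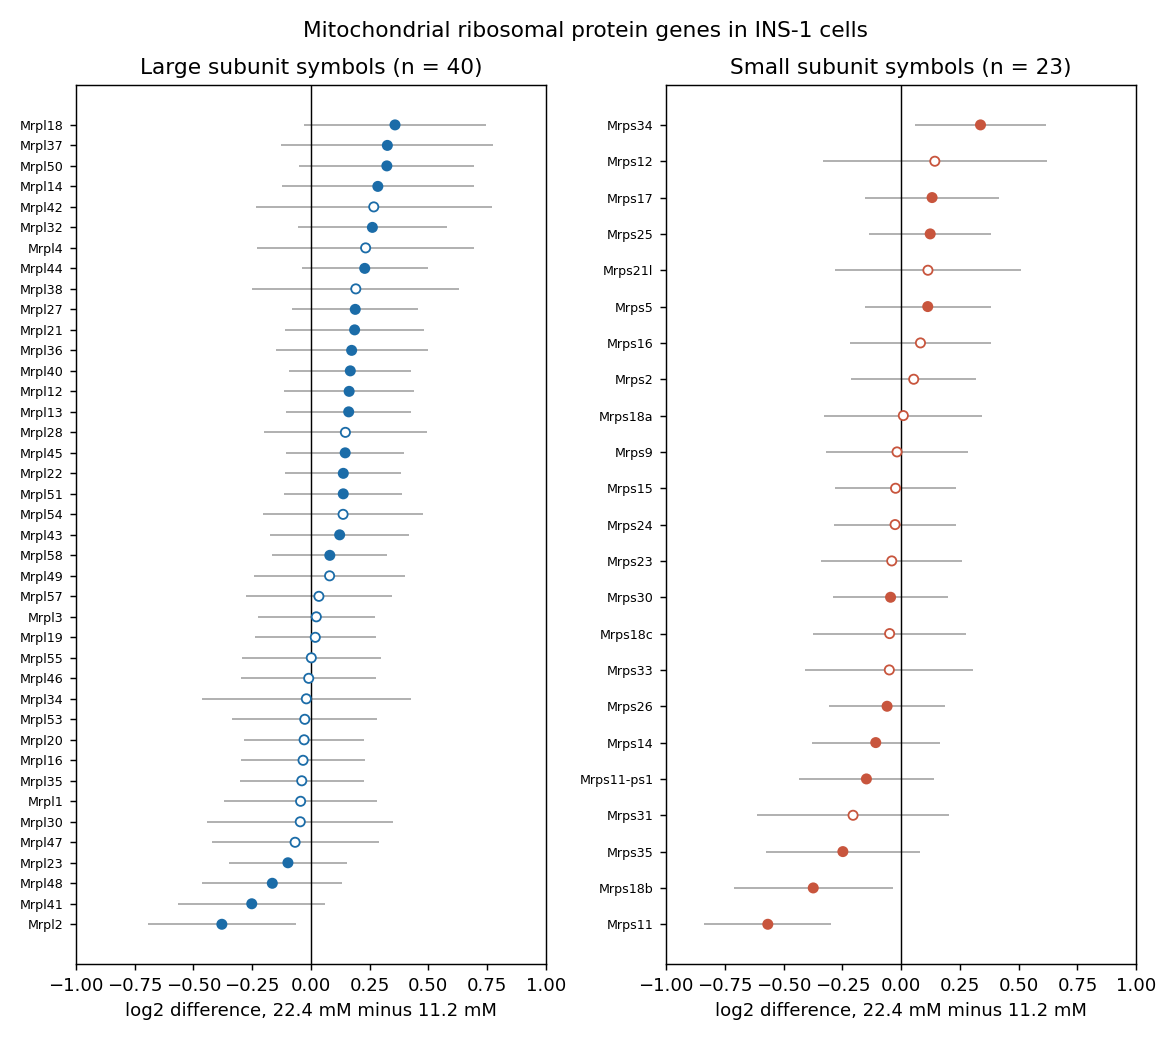
Log2 difference (22.4 mM minus 11.2 mM, x axis) of each of the 40 large subunit and 23 small subunit genes, with 95% intervals of the moderated fit. Filled points mark genes whose 2 groups of arrays do not overlap; 27 of 40 large subunit points and 9 of 23 small subunit points lie right of 0.

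The large subunit values were also summarized on each array. After each gene's mean over the 4 arrays was subtracted, the large subunit median was 0.017 and 0.069 on the 22.4 mM arrays, against -0.073 and -0.026 on the 11.2 mM arrays. The small subunit median was -0.024 and -0.0092 on the 22.4 mM arrays, against -0.0080 and 0.028 on the 11.2 mM arrays. Large minus small, the medians differed by 0.042 and 0.078 at 22.4 mM and by -0.065 and -0.053 at 11.2 mM. Both arrays at the higher glucose thus lay above both at the lower. This restates by array the subunit medians given above, on the same 4 arrays, and was not tested. Between the replicates of 11.2 mM, replicate 1 was below replicate 2 in 25 of 40 large subunit genes, by a median of -0.069. Over all 63 genes the mean absolute log2 difference was 0.089 between the 22.4 mM replicates and 0.180 between the 11.2 mM replicates. Pairs of arrays from different glucose levels differed by 0.190 and 0.220 with replicate 1 of 11.2 mM, and by 0.124 and 0.141 with replicate 2. Replicate 2 of 11.2 mM was thus nearer to both 22.4 mM arrays than to its own replicate. In 22 of the 63 genes (34.9%) the glucose difference was larger than both replicate gaps, against 30.5% of all genes with 1 symbol.

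**Figure D2:**
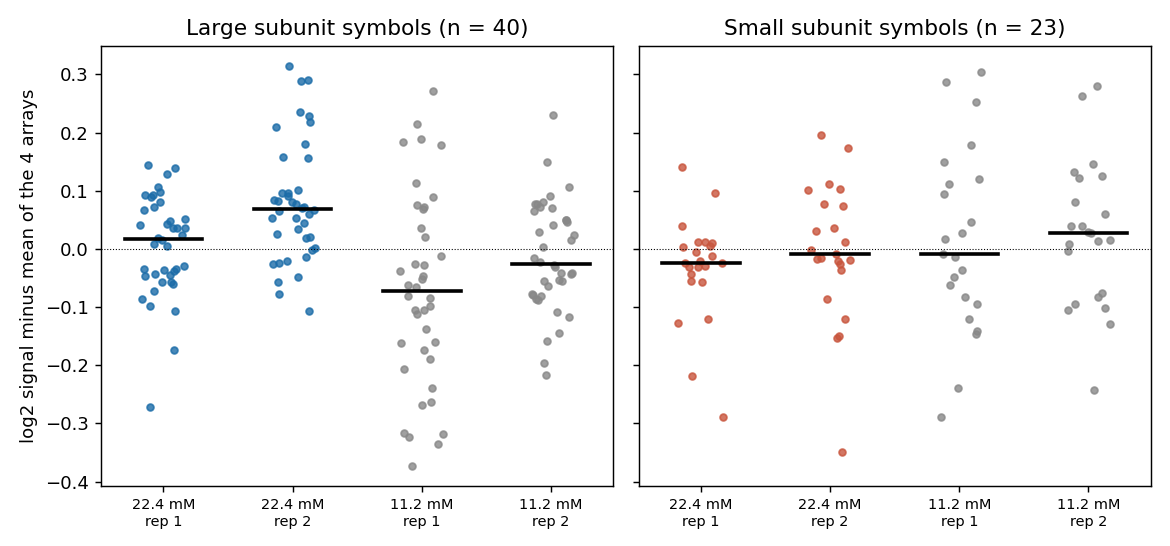
Log2 signal of each gene minus its mean over the 4 arrays (y axis), by array, for large and small subunit genes; points are genes and bars are medians. Large subunit medians are 0.017 and 0.069 at 22.4 mM, against -0.073 and -0.026 at 11.2 mM, and replicate 1 of 11.2 mM has the widest scatter among the large subunit genes.

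In the large subunit, the highest differences among genes without overlap of the groups were those of Mrpl18, Mrpl37, Mrpl50, Mrpl14 and Mrpl32. Mrpl18 (probe set 17611835), a protein of the bacterial L18 family in the central protuberance, had 7.90 and 8.13 at 22.4 mM, against 7.52 and 7.79 at 11.2 mM. Its difference of 0.36 (SE 0.15, adjusted p = 0.567) is a 1.28-fold higher signal, and the lower 22.4 mM array stood only slightly above the higher 11.2 mM array. Leaving out replicate 1 of 11.2 mM gave 0.22. Mrpl37 (17809111), which has no bacterial counterpart, had 9.17 and 9.32 at 22.4 mM, against 8.71 and 9.13 at 11.2 mM. Its replicates at 11.2 mM lay farther apart than the group means, which differed by 0.33 (SE 0.17), and without replicate 1 of 11.2 mM the difference was 0.12. Mrpl50 (17807225), also without a bacterial counterpart, had 7.43 and 7.68 at 22.4 mM, against 7.12 and 7.34 at 11.2 mM, a difference of 0.32 (SE 0.14) that was 0.20 without replicate 2 of 22.4 mM.

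Mrpl14 (17862959), of the L14 family at the face that meets the small subunit, had 8.13 and 8.15 at 22.4 mM, against 7.66 and 8.05 at 11.2 mM. The 22.4 mM arrays nearly coincided, while replicate 1 of 11.2 mM stood low, and the difference of 0.29 (SE 0.16) was 0.093 without it. Mrpl32 (17716043), of the L32 family, which a protease of the mitochondrial inner membrane trims before it joins the ribosome, had 8.55 and 8.65 at 22.4 mM, against 8.23 and 8.44 at 11.2 mM. Its difference was 0.26 (SE 0.12), and 0.15 without replicate 1 of 11.2 mM. Mrpl12 (17653317), of the stalk that recruits translation factors, had 7.22 and 7.37 at 22.4 mM, against 7.13 and 7.13 at 11.2 mM, a difference of 0.16 (SE 0.11, adjusted p = 0.706) that was 0.087 without replicate 2 of 22.4 mM. The groups did not overlap in any of these 6 genes, all but Mrpl12 taken for that reason, and none passed over all probe sets.

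On the lower side the large subunit held 4 genes without overlap. Mrpl2 (17857412), of the L2 family next to the peptidyl transferase centre, had 6.35 and 6.52 at 22.4 mM, against 6.90 and 6.73 at 11.2 mM. Its difference of -0.38 (SE 0.12, limma adjusted p = 0.480) was the lowest of the large subunit. Mrpl41 (17770746), without a bacterial counterpart, had 9.30 and 9.40 at 22.4 mM, against 9.50 and 9.71 at 11.2 mM, a difference of -0.25 (SE 0.12) that was -0.15 without replicate 2 of 11.2 mM. Mrpl48 (17635267), of the central protuberance, had 8.49 and 8.54 at 22.4 mM, against 8.77 and 8.58 at 11.2 mM, and Mrpl23 (17622500), of the L23 family at the exit tunnel, had 9.64 and 9.69, against 9.79 and 9.74. Differences of these 2 were -0.16 and -0.097 (SE 0.11 and 0.095), and the difference of Mrpl48 was -0.067 without replicate 1 of 11.2 mM. Of all large subunit genes, only Mrpl2 had a 95% interval that did not hold 0. In 19 of the 40 large subunit genes the groups overlapped. Mrpl42 (17835350), the member with the lowest mean signal, had 4.28 and 4.64 at 22.4 mM, against 4.01 and 4.38 at 11.2 mM. Its signal was not shown to be above background, so its difference of 0.27 can be understated. Both of its replicate gaps, 0.36 at 22.4 mM and 0.37 at 11.2 mM, were larger than that difference.

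The small subunit held the lowest difference of all 63 genes. Mrps11 (17617570), of the S11 family on the platform of the small subunit, had 5.13 and 5.0 at 22.4 mM, against 5.65 and 5.61 at 11.2 mM. Its groups lay well apart, with a difference of -0.57 (SE 0.10, limma adjusted p = 0.300), or 1.48-fold lower. Without any 1 array the difference stayed between -0.63 and -0.50. The signal is dim, near the array median, and Mrps11-ps1 (17687234), annotated as a pseudogene of it, had 7.94 and 7.78 at 22.4 mM, against 8.06 and 7.96 at 11.2 mM, a difference of -0.15 (SE 0.11) that was -0.069 without replicate 2 of 22.4 mM. Whether the probes of these 2 share signal is uncertain, since their letters were not analysed here, and RefSeq lists 40 pseudogenes with Mrpl or Mrps symbols in the rat.

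Mrps18b (17752578), 1 of the 3 relatives of the bacterial S18 protein, had 7.28 and 7.49 at 22.4 mM, against 7.67 and 7.85 at 11.2 mM, a difference of -0.37 (SE 0.13, adjusted p = 0.509). The other relatives were near 0: Mrps18a differed by 0.0091 (SE 0.13) and Mrps18c by -0.049 (SE 0.12), and the arrays of both groups overlapped in each. Mrps35 (17788257), without a bacterial counterpart, had 7.58 and 7.58 at 22.4 mM, against 7.95 and 7.70 at 11.2 mM, a difference of -0.25 (SE 0.12) that was -0.12 without replicate 1 of 11.2 mM. Mrps14 (17681249), of the S14 family, had 6.70 and 6.83 at 22.4 mM, against 6.85 and 6.90 at 11.2 mM, a difference of -0.11 (SE 0.10) that was -0.041 without replicate 1 of 22.4 mM. All 3 of Mrps18b, Mrps35 and Mrps14 were taken because both 22.4 mM arrays lay below both 11.2 mM arrays.

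On the higher side of the small subunit stood Mrps34, Mrps17, Mrps25 and Mrps5. Mrps34 (17644419), which has no bacterial counterpart and whose loss in humans destabilizes the small subunit, had 8.05 and 8.11 at 22.4 mM, against 7.82 and 7.67 at 11.2 mM. It was 1.26-fold higher, with a difference of 0.34 (SE 0.11, limma adjusted p = 0.480). The groups of Mrps34 were separated by more than either replicate gap. Mrps17 (17673348), of the S17 family, had 7.80 and 7.74 at 22.4 mM, against 7.56 and 7.72 at 11.2 mM. Mrps25 (17793315), without a bacterial counterpart, had 7.80 and 7.90 at 22.4 mM, against 7.74 and 7.72 at 11.2 mM. Mrps5 (17765978), of the S5 family, had 8.88 and 8.97 at 22.4 mM, against 8.86 and 8.76 at 11.2 mM. Differences of these 3 were 0.13, 0.12 and 0.11 with standard errors of 0.11, 0.099 and 0.10, so their groups were apart by about 1 standard error. With 1 array left out they were smaller: Mrps17 differed by 0.051 without replicate 1 of 11.2 mM, Mrps25 by 0.073 without replicate 2 of 22.4 mM, and Mrps5 by 0.065 without replicate 2 of 11.2 mM and 0.068 without replicate 2 of 22.4 mM. Mrps12 (17631158), of the S12 family at the decoding centre, had 6.63 and 6.84 at 22.4 mM, against 6.38 and 6.81 at 11.2 mM, with groups that overlapped.

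**Figure D3:**
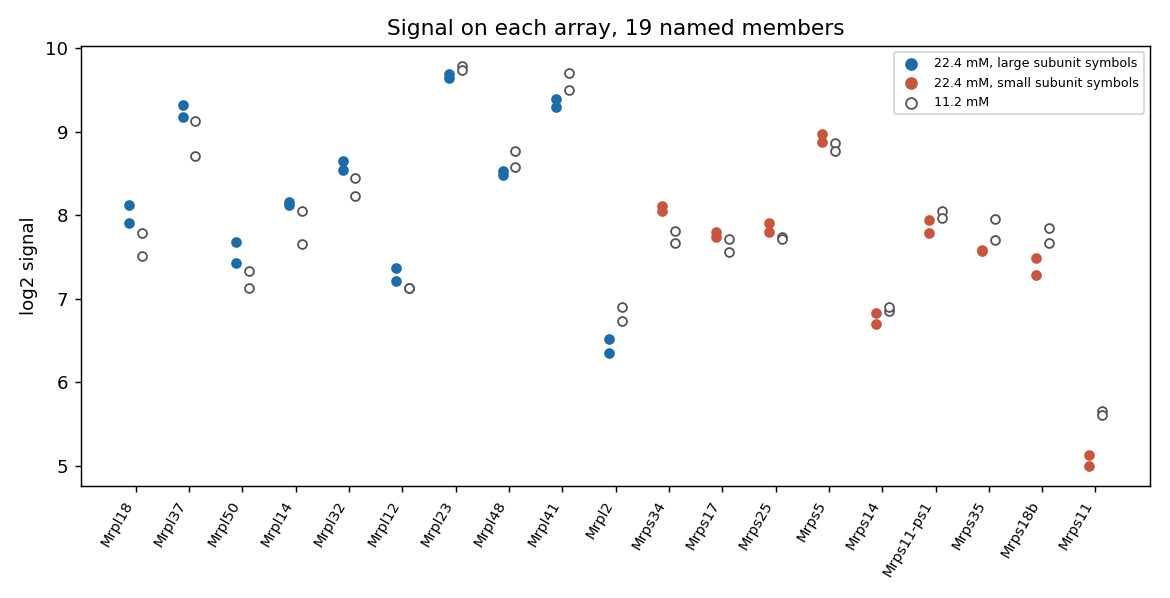
Log2 signal (y axis) of 19 genes on each array, 22.4 mM as filled points left of 11.2 mM as open points; heights of different genes are not to be compared. Groups do not overlap in any of the 19, 18 of which were taken for that reason, and the gap is widest in Mrps11, with 5.13 and 5.0 at 22.4 mM, against 5.65 and 5.61 at 11.2 mM.

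Grouped by place and origin, an assignment from textbook knowledge made after the values were seen, the genes showed the same small sizes. A pair of genes with small subunit names, Mrps18a and Mrps30, encode proteins that sit in the large subunit of the mammalian mitoribosome. With these moved and the pseudogene left out, the median difference was 0.10 over 42 large subunit genes and -0.025 over 20 small subunit genes. The 5 measured mitoribosomal proteins with other symbols were not added to these classes. Of the 5, 4 had positive differences, Chchd1 and Ptcd3 of the small subunit among them, so the small subunit median could differ with them included. In the large subunit, 14 of 19 proteins without a bacterial counterpart had positive differences (median 0.12), and so did 14 of 23 with one (median 0.023). In the small subunit, 2 of 8 without a bacterial counterpart were positive (median -0.055), and 6 of 12 with one (median 0.018). Mrps18a and Mrps18b, although relatives of bacterial S18, were counted here as without a counterpart, and Mrps18c as with one. These medians depend on that assignment, and no difference between the classes was tested. The 7 genes of the central protuberance (Mrpl18, Mrpl27, Mrpl38, Mrpl40, Mrpl46, Mrpl48 and Mrpl55) had a median of 0.17, with groups that overlapped in 3 of them. All 7 had their outermost value on replicate 1 of 11.2 mM, whose part in that median was not tested. Mrpl30, the 1 member with a second probe set, differed by -0.045 on the brighter and 0.095 on the dimmer one, and the groups overlapped on the brighter one and did not on the dimmer one.

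Promoters of these genes held the motifs of known regulators of mitochondrial genes more often than the windows of all genes named on the array, as a description without a test. Each motif was searched on both strands of the whole window. The NRF1 palindrome with any base allowed at 1 central letter, a search that takes in the full palindrome, was in 8 of 51 member windows (15.7%), against 6.4% of 12573 windows of genes named on the array and 4.25% of all 33469 windows. CCGGAAG, the ETS core, was in 16 (31.4%), against 12.2% and 8.75%. ATGGCGG, bound by YY1, was in 12 (23.5%), against 6.99% and 4.8%. GGGCGG, bound by SP1, was in 25 (49.0%), against 45.8% and 33.1%, and TATAAA was in 7 (13.7%), against 12.6% and 14.2%. The median GC content of the member windows was 55.7%, against 56.7% for the genes named on the array.

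Genes with each motif had differences on both sides of 0. Those with the looser NRF1 motif had a median difference of 0.090 over 8 genes, against 0.016 over the 42 without it. Those with CCGGAAG had -0.027 over 16 genes, against 0.098 over 34 without it, and those with ATGGCGG 0.00014 over 12, against 0.044 over 38. The full palindrome was in 3 genes, Mrps18b, Mrpl32 and Mrpl44, whose differences were -0.37, 0.26 and 0.23. Mrpl44 (17860807), a protein near the exit tunnel with a fold like ribonuclease III, had 6.51 and 6.45 at 22.4 mM, against 6.19 and 6.31 at 11.2 mM. The groups did not overlap in any of the 3, with Mrps18b lower and Mrpl32 and Mrpl44 higher. Lack of overlap was found in 44.6% of all genes with 1 symbol, and 3 genes are too few to set against that share. The full palindrome was in 5.88% of member windows, against 1.22% of windows of genes named on the array.

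Many of these genes start next to another gene on the opposite strand. A start pointing away within 1000 bases was found for 16 of the 50 genes with a window (32%), against 12.1% of 11724 genes named on the array. These 16 formed 15 pairs, and the partner was measured in 11, of which 7 had differences of the same sign and 4 of opposite sign. Mrps11 and Mrpl46, whose proteins join different subunits, formed the 1 pair in which both are members. Mrpl46 (17634072) had 7.58 and 7.64 at 22.4 mM, against 7.71 and 7.54 at 11.2 mM, a difference of -0.0089 (SE 0.11), beside -0.57 in Mrps11. The groups overlapped in Mrpl46 and lay apart in Mrps11.

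In the other pairs the partners differed by -0.48 to 0.52. Mrpl18 stood at 0.36 beside 0.22 (SE 0.097) for Tcp1, a subunit of the cytosolic chaperonin, and Mrpl2 at -0.38 beside -0.24 (SE 0.11) for the kinesin light chain Klc4. Mrpl37 at 0.33 stood beside -0.48 (SE 0.11, adjusted p = 0.368) for the reductase-like gene Cyb5rl, whose 5.17 and 5.10 at 22.4 mM lay below 5.54 and 5.69 at 11.2 mM. Mrps18b at -0.37 stood beside 0.087 (SE 0.15) for Ppp1r10, a regulator of protein phosphatase 1. Mrpl27 and Mrpl51 were paired with Eme1, of DNA repair, and Ncapd2, of chromosome condensation, which had 0.52 (SE 0.32) and 0.41 (SE 0.31). Both of these partners were low on replicate 1 of 11.2 mM, with 6.05 and 8.45, against 6.97 and 9.35 on replicate 2.

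**Figure D4:**
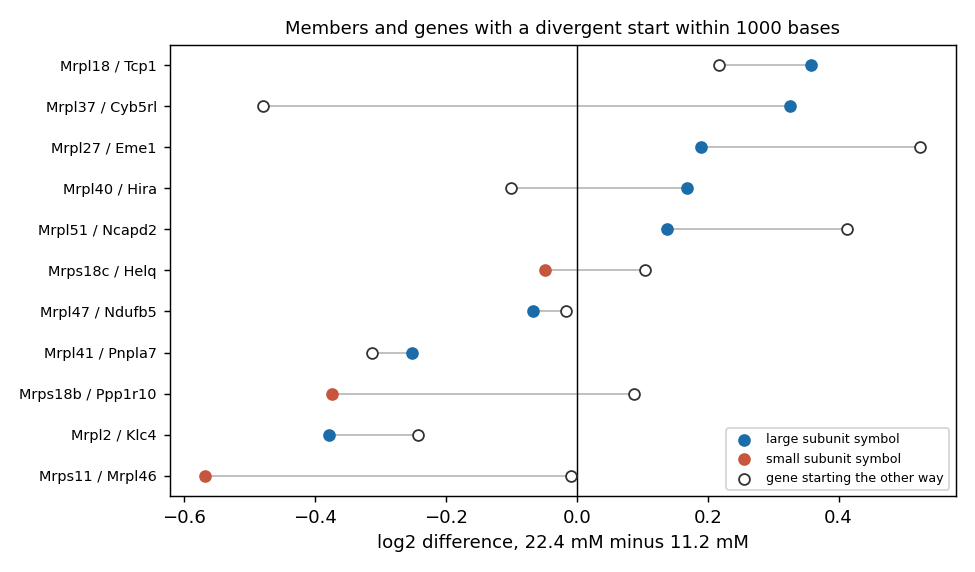
Log2 difference (22.4 mM minus 11.2 mM, x axis) of each member (filled) and of the measured gene that starts in the other direction within 1000 bases (open), joined by a line. Signs agree in 7 of the 11 pairs, and in the bottom pair Mrps11 is at -0.57 while Mrpl46 is at -0.0089.

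The other genes of mitochondrial translation also held no call, and their list medians lay on either side of 0. Of 98 listed genes 68 were measured, with a median difference of -0.015. Differences were positive in 31 (45.6%), against 48.9% of all genes with 1 symbol. An unadjusted p under 0.05 was found in 7 (10.3%), against 9.12% of all probe sets. Mitoribosomal proteins with other symbols had 4 of 5 positive (median 0.10). Chchd1 (17701030), of the small subunit, had 7.71 and 7.74 at 22.4 mM, against 7.41 and 7.59 at 11.2 mM, a difference of 0.23 (SE 0.11) that was 0.14 without replicate 1 of 11.2 mM. Ptcd3 (17792194), also of the small subunit, differed by 0.10 (SE 0.11) with groups that overlapped, and by 0.0023 without replicate 2 of 11.2 mM. Of the 5, Chchd1 alone had groups that did not overlap.

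Translation factors had 7 of 11 negative (median -0.12), and the groups did not overlap in 9, with 6 lower, against 21.0% of all probe sets, and 3 higher (Gfm1, Mtrf1l and Mtfmt), against 19.6%. Gfm2 (17735374), the elongation factor G that recycles ribosomes, had 8.10 and 8.18 at 22.4 mM, against 8.45 and 8.50 at 11.2 mM, a difference of -0.34 (SE 0.098, adjusted p = 0.456). Mtif2 (17692143), the initiation factor, differed by -0.21 (SE 0.095). Of the aminoacyl-tRNA synthetases and amidotransferase subunits, 8 of 14 were negative (median -0.0045), with 3 at an unadjusted p under 0.05 (21.4%), all negative, against 9.12% of all probe sets. Ears2 (17636883), the glutamyl-tRNA synthetase, had 6.33 and 6.40 at 22.4 mM, against 6.82 and 6.75 at 11.2 mM, a difference of -0.42 (SE 0.098, adjusted p = 0.382). Gatb (17739447), a subunit of the enzyme that turns the glutamyl-tRNA for glutamine into its final form, had 7.70 and 7.78, against 8.29 and 8.11, a difference of -0.46 (SE 0.11, adjusted p = 0.402). In both the groups lay apart by more than either replicate gap, while the other subunits of the same enzyme, Gatc and Qrsl1, differed by 0.0080 (SE 0.11) and -0.0034 (SE 0.097) with groups that overlapped.

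Assembly and rRNA maturation genes had 10 of 16 negative (median -0.026), against 7437 of 14557 genes with 1 symbol. Their extremes were both rRNA methyltransferases of the large subunit: Mrm2 (17672113) had 9.23 and 9.41 at 22.4 mM, against 8.58 and 8.94 at 11.2 mM, and Mrm3 (17648712) had 5.28 and 5.47, against 5.72 and 5.79. The differences were 0.57 (SE 0.16, adjusted p = 0.449) and -0.38 (SE 0.11, adjusted p = 0.467). Genes of mitochondrial DNA expression had 10 of 13 negative (median -0.12). The groups did not overlap in 6, all lower (46.2%), against 23.1% of all genes with 1 symbol. The smallest unadjusted p values were those of the transcription elongation factor Tefm (17659210) and of Mterf2 (17827179), of the family of mitochondrial termination factors. Tefm differed by -0.29 (SE 0.12), or -0.19 without replicate 1 of 11.2 mM, and Mterf2 by -0.24 (SE 0.10). Nuclear regulators had 8 of 9 positive (median 0.15), against 48.9% of all genes with 1 symbol. The groups did not overlap in 4 (44.4%), against 44.6% of all genes with 1 symbol: 3 were higher and Sp1 was lower, at -0.15 (SE 0.096). Gabpa and Yy1 differed by 0.15 (SE 0.12) and 0.073 (SE 0.11), with groups that overlapped. The smallest unadjusted p values were those of the nuclear receptor Esrra (17639978) with 0.21 (SE 0.095) and the coactivator Ppargc1b (17726518) with 0.17 (SE 0.094). In Esrra and Ppargc1b both 22.4 mM arrays lay above both 11.2 mM arrays, and in Tefm and Mterf2 below them.

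Beside the closest groups, the large subunit median of 0.13 stood above that of cytosolic ribosomal proteins, 0.057 over 136 genes with 85 positive, and of respiratory chain and ATP synthase subunits, -0.013 over 75 genes with 35 positive. The small subunit median of -0.026 lay near that of the respiratory chain. Among genes without overlap between the glucose levels, more lay higher than lower in both comparison lists as well as in the large subunit. The large subunit had 17 higher (42.5%) and 4 lower (10%), and the small subunit 4 and 7. Cytosolic ribosomal proteins had 43 higher (31.6%) and 14 lower (10.3%), and the respiratory chain 18 (24%) and 7 (9.33%). Over all genes with 1 symbol the shares were 21.5% higher and 23.1% lower. Holding more higher than lower genes was thus not particular to the large subunit. Its share on the higher side was the largest of the 4 lists, while that of the respiratory chain lay near the share of all genes. The interquartile ranges of all 4 overlapped, from -0.026 to 0.19 in the large subunit, -0.084 to 0.098 in the small subunit, -0.033 to 0.10 in cytosolic ribosomal proteins and -0.035 to 0.093 in the respiratory chain.

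**Figure D5:**
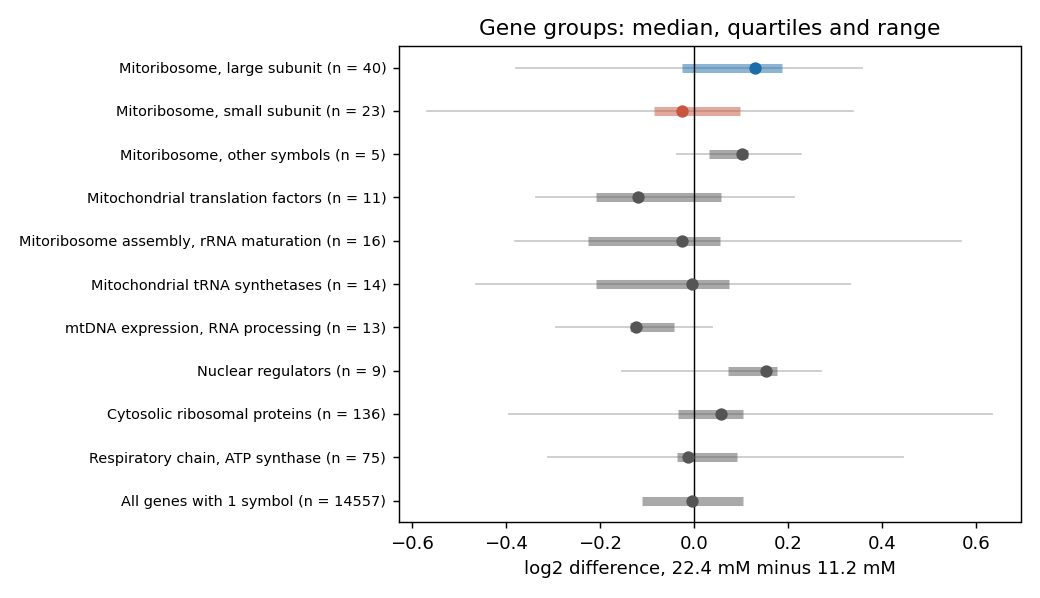
Median (point), interquartile range (thick bar) and full range (thin line, not drawn for all genes) of log2 differences (22.4 mM minus 11.2 mM, x axis) in each gene group. The large subunit median is 0.13 and the small subunit median -0.026, while translation factors and genes of mitochondrial DNA expression each have -0.12.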

How the data were processed

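The authors deposited 1 table of log2 values, 36685 probe sets on 4 Affymetrix arrays; base 2 was inferred from the range, and the handling of background, normalization and summarization was not given in the sources used here. Values were used as deposited, without a filter. Gene symbols are those of the array platform and may be outdated; all 63 Entrez identifiers were found in RefSeq (GRCr8) with 0 symbols changed, and 1 probe set with several symbols was left out. Promoter windows are RefSeq's, matched by gene identifier.

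Glucose groups (2 arrays each) were fitted in R 4.3.3 by lmFit and eBayes of limma 3.58.1 (two-sided, 2 residual degrees of freedom). Benjamini-Hochberg adjustment ran over every probe set and calls were made at 0.05. Precision is limited by the number of arrays: the median SE of a member's difference was 0.11. The code was tested on simulated data.

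The members, lists and tests were chosen with earlier results of these data known. Named genes were, per subunit, the 5 highest and 5 lowest differences among genes without overlap of the groups (fewer where fewer exist), Mrpl12, and the 2 smallest p of each related list; Mrps36, which the rule also took, was not among the symbols used. Genes at the ends of ranges, relatives, and promoter partners were named after their values were seen. Cytosolic and respiratory lists were taken by symbol, leaving out kinases, assembly factors and pseudogenes. Alternatives varied the normalization, the probe sets tested, the variance model, the probe set per gene, the arrays and the replicate block. Deviations of same-numbered arrays had a correlation of -0.0778. With 2 arrays in each group this is a single value, which cannot show whether same-numbered arrays were handled together.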

Additional observations from a re-analysis of the deposited data

How the results depend on the processing

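In each of the 12 alternatives 0 members passed, and all 31 named genes kept their sign and stayed on the same side of the threshold in the alternatives that could be computed; over these the adjusted p of the 19 named members ranged from 0.0972 to 0.997. Fitting only the 14824 probe sets with 1 gene symbol called 62 probe sets, none of them a member (lowest member adjusted p = 0.0972 for Mrps11); the other 11 alternatives called 0. The labels do not say whether the replicate numbers pair the arrays. With the replicate block in the limma fit 0 probe sets passed (lowest adjusted p = 0.544), with 2958 at an unadjusted p under 0.05 against 3344 without it. Without 1 array the large subunit median ranged from 0.067 (without replicate 2 of 22.4 mM) to 0.13, and was 0.087 without replicate 1 of 11.2 mM; the small subunit median ranged from -0.051 to 0.0014, the last without replicate 2 of 11.2 mM. Under the other settings these medians were 0.10 to 0.14 and -0.026 to -0.017. Without 1 array the members without overlap numbered 24 to 38 higher and 13 to 21 lower, where a lone array makes lack of overlap likelier: 31.8% to 37.2% and 32.9% to 37.6% of all probe sets. With arrays centred on their medians 7 members lay lower without overlap, in place of 11, against 18.3% of all probe sets. Members at an unadjusted p under 0.05 numbered 1 and 3 without replicate 1 and 2 of 22.4 mM (5.83% and 5.76% of all probe sets), and 4 and 9 without replicate 1 and 2 of 11.2 mM (7.92% and 15.6%). In the fits without 1 array the lone array is assumed to vary like the others. No background level was used, so differences of dim probe sets such as Mrps11 can be understated. That of Mrps11 can also be overstated, since it was named as the lowest of all members.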
